A study of Homo sapiens with 24 samples.

Results

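H4K20me3 domains that were present in every control library and had no peak left in any treated library were followed in HN-SCC-151, a line of HPV-negative squamous carcinoma of the head and neck. CUT&RUN, in which a nuclease bound to an antibody cuts out the chromatin that carries a mark, was used to map trimethylated lysine 20 of histone H4. The treated groups were cells given A-196 at 2.5 µM (3 libraries) and cells transfected with siRNAs to SUV420H1 (siSUV420H1, 4 libraries). Their references were cells given DMSO (3 libraries) for A-196 and cells transfected with siNC, the control siRNAs (4 libraries), for siSUV420H1. All groups were wild type by label and were collected after 6 days, with 500000 cells in each reaction. The labels give no sequence or number for the siRNAs. The design text speaks of 3 dishes per condition while the siRNA groups have 4 libraries, so whether each library came from a dish of its own is not known, and the p-values below measure the spread between libraries, which may be technical.

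To find the domains, the deposited broad peaks of the 14 libraries were laid on a grid of 1 kb. Bins covered in all 7 control libraries were merged where they touched, and regions of at least 5 kb were kept. These were the 5957 control regions. The 578 of them that no peak of the 7 treated libraries touched, 9.7% of the control regions, are the domains lost in both arms. The domains were thus chosen by the peak calls of the treated and the control libraries, so their presence in controls and absence after treatment is a description and was not tested. Peak lists of a silent mark do not show which genes are expressed, and the identity of the cells could not be checked in them.

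H4K20me3 is laid down by the paralogous enzymes SUV420H1 (gene KMT5B) and SUV420H2 (gene KMT5C), which methylate H4K20 further after SET8 has placed the first methyl group. A-196 inhibits both enzymes, and the siRNAs name SUV420H1. The mark is known as a feature of constitutive heterochromatin, at repeats near centromeres and telomeres, where SUV420H enzymes are recruited by HP1 bound to methylated H3K9, and it also covers some silent genes along chromosome arms, among them clusters of zinc finger genes.

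A small number of the domains covered the start of a gene, where a silencing mark is in reach of the promoter. The 250 bases upstream of 5 such starts are printed, and these were chosen after their values were seen. At each of them the domain spanned the upstream stretch and the start together in all control libraries. No treated library had a peak there. Other starts met this too, among them those of ART3, IFI16 and CARD6, so the 5 do not stand for all. RTP4 and IFIT3 are interferon-induced genes, SLFN12L belongs to the schlafen family, CLCA2 encodes a regulator of calcium-activated chloride conductance in stratified epithelia, and LACTB encodes a mitochondrial protein related to bacterial beta-lactamases. Sequences are RefSeq, build GRCh38.p14, 5′ to 3′ on the strand of the gene, with the last base next to the start. Capitals mark matches to the core of interferon response elements (GAAA repeated after a gap of 2 bases) on either strand, to TGANTCA, the AP-1 site, on either strand, and to TATAAA on the strand of the gene.
RTP4 (chr3:187368135-187368384, plus strand): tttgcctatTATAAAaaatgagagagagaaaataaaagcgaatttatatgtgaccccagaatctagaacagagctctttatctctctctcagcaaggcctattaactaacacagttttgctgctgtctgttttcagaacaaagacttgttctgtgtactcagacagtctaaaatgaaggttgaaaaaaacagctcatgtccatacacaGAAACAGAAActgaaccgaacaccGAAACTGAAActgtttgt
IFIT3 (chr10:89327747-89327996, plus strand): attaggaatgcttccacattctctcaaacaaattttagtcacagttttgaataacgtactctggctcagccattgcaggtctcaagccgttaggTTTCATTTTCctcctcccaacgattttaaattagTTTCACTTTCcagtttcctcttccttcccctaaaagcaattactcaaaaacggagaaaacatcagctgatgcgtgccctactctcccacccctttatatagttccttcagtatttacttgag
SLFN12L (chr17:35537679-35537928, minus strand): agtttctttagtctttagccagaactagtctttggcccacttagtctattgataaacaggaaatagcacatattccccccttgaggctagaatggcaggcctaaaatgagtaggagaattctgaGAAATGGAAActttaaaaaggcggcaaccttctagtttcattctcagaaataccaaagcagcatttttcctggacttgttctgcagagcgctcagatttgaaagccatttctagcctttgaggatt
CLCA2 (chr1:86423921-86424170, plus strand): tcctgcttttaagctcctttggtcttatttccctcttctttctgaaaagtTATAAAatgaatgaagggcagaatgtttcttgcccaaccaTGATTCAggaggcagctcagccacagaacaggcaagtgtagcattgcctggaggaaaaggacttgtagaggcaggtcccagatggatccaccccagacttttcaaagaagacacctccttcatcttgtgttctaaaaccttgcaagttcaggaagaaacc
LACTB (chr15:63121611-63121860, plus strand): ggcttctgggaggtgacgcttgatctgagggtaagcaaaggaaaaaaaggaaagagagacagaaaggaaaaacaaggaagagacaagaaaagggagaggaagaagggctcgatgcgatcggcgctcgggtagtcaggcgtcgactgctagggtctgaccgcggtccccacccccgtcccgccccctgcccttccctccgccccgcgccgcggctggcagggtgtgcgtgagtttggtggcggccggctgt
The RTP4 stretch held 2 interferon response cores, which began 42 and 18 bases before the start, and a TATAAA 241 bases before it. The IFIT3 stretch held 2 such cores, read on the opposite strand, 156 and 122 bases before the start. SLFN12L had a single core at 126 bases. CLCA2 had an AP-1 match at 160 bases and a TATAAA at 200 bases. LACTB had none of the 3 motifs and was rich in CpG, with 23 CpG in the 300 bases from 250 before to 50 after its start, against 0 in the CLCA2 window and 4 in that of RTP4.

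The mature products of the microRNA gene MIR199A2 are shown as well, because this was the single microRNA hairpin in a domain, of 19 hairpins in control regions and 1562 in the RefSeq table. Capitals mark the seed, bases 2 to 8.
hsa-miR-199a-3p: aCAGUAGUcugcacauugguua
hsa-miR-199a-5p: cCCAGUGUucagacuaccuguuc
They lie on the minus strand at chr1:172144554-172144575 and chr1:172144592-172144614, inside a domain of 5 kb at chr1:172143001-172148000. The arms of this hairpin have different seeds, and miR-199a is best known from mesenchymal cells.

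The libraries from which the domains were drawn differed in how much was called. Covered length without chromosome Y was 79.5 to 107 Mb in A-196 libraries and 118 to 129 Mb in siSUV420H1 libraries, against 145 to 153 Mb in DMSO libraries and 183 to 193 Mb in siNC libraries. The lists held 8495 to 13456 peaks with A-196 and 9307 to 10184 with siSUV420H1, against 8426 to 8918 with DMSO and 13808 to 14664 with siNC. Read depth is unknown, since the lists hold no counts, and the part of depth or enrichment in what was called was not tested. In these bulk libraries, a smaller share of cells carrying the mark and less mark in each cell cannot be told apart, and where a list shows no peak the mark may still be there at a level that was not called.

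Each arm alone lost more regions. Of the 5957 control regions, 1384 had no peak in any A-196 library (23.2%) and 1172 had none in any siSUV420H1 library (19.7%). The 578 domains were 41.8% of those lost with A-196 and 49.3% of those lost after siSUV420H1, which left 806 and 594 regions lost in a single arm. Counted in bins, 11383 of the 86511 bins of 1 kb covered in all controls had no peak in any treated library (13.2%). At the other end, 1917 control regions had a peak in all 7 treated libraries.

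Just outside the rule stood 409 control regions with a peak in a single treated library. That library was from the A-196 group in 293 of them and from the siSUV420H1 group in 116. A-196 replicate 3 alone accounted for 185, or 45.2%, against 55 and 53 for replicates 1 and 2, and 36, 22, 33 and 25 for siSUV420H1 replicates 1 to 4. A-196 replicate 3 thus stands apart in these near misses, and without it the count of domains is 763 in place of 578. In each of the 7 libraries the median stretch that kept such a region out was 5 kb long, the width of the narrowest peaks. Below the width limit, 35 of 124 control regions of 4 kb (28.2%) had no treated peak, beside 147 of 577 at 5 kb (25.5%).

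An example just outside the rule is the region over CXCL9, CXCL10 and CXCL11, the interferon-induced chemokine genes on chromosome 4, chosen after its values were seen. This control region spans 39 kb at chr4:76008001-76047000. It had 0 kb under peaks in 6 of the 7 treated libraries and 8 kb in siSUV420H1 replicate 3. The control regions next to it on the side of ART3, 13 kb and 6 kb wide, are domains lost in both arms.

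The lost domains were the small ones among control regions. Together they covered 4365 kb, with a median width of 7 kb, against 10 kb for all other control regions and 16 kb for those kept in all treated libraries. The widest lost domain measured 33 kb, against 347 kb for the widest of the other control regions. The share lost fell with width, from 25.5% of regions of 5 kb (147 of 577) to 15.1% at 6 to 9 kb (349 of 2313), 3.63% at 10 to 19 kb (76 of 2091) and 0.615% at 20 kb or more (6 of 976). Conversely, 5.72% of regions of 5 kb and 76% of those of 20 kb or more kept a peak in every treated library. A wide region offers more bins to be touched by a treated peak, so width bears on the rule itself, and the shares by chromosome and by gene are therefore also given for regions of 5 to 9 kb, of which 496 of 2890 were lost (17.2%).

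The chromosomes were unequal in their share of lost domains, also at like width. Chromosome 4 had the highest share, 70 of 403 control regions (17.4%), and 28.7% of its regions of 5 to 9 kb. Next came chromosome 12 with 41 of 295 (13.9%), chromosome 18 with 22 of 162 (13.6%) and chromosome 1 with 62 of 479 (12.9%). Chromosome 19 had the lowest share, 3 of 233 (1.29%), and 3.19% of its regions of 5 to 9 kb. Chromosome 22 lost 2 of 57 (3.51%) and chromosome 13 lost 11 of 250 (4.4%). The median over the 23 chromosomes was 8.33%. When each of the 14 libraries was left out in turn, chromosome 4 stayed at 17.3% to 21.1% and chromosome 19 at 1.23% to 1.67%.

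**Figure D1:**
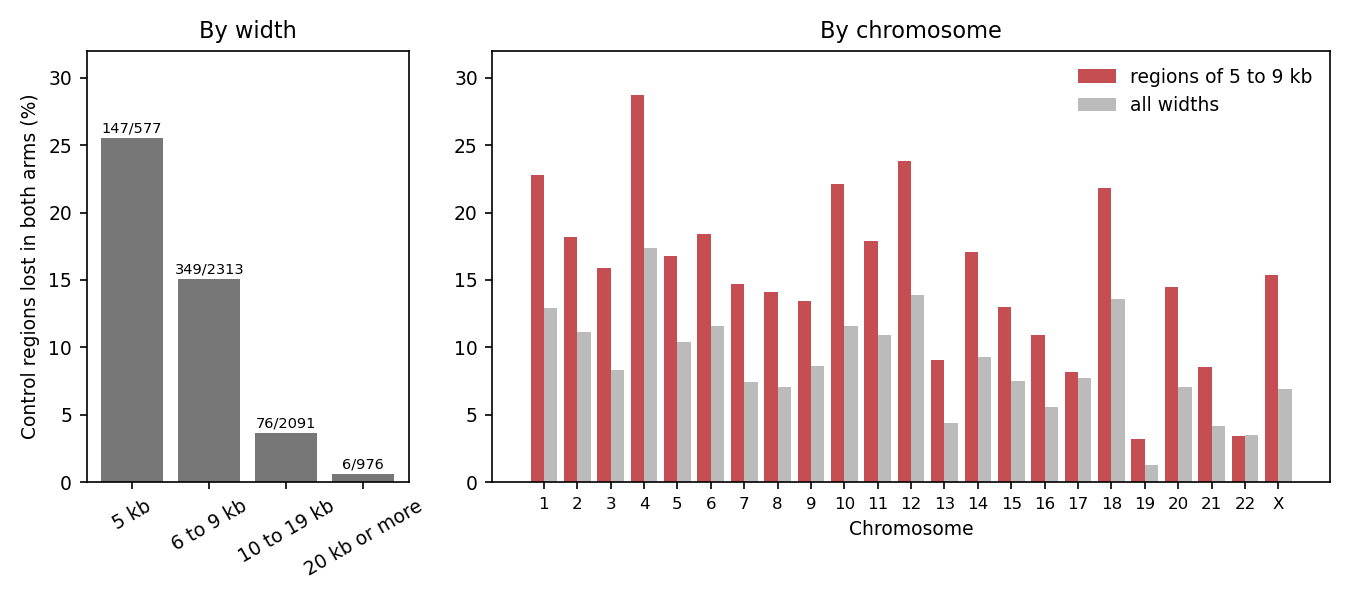
The vertical axis gives the percentage of control regions that were lost in both arms, by width of the region with the counts above the bars (left) and by chromosome for regions of 5 to 9 kb and for all widths (right). The share was 25.5% at 5 kb and 0.615% at 20 kb or more, and among chromosomes with all widths it ran from 1.29% on chromosome 19 to 17.4% on chromosome 4.

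Of the domains, 6 were 20 kb or wider, and the 12 widest are described here. The widest, chr4:135200001-135233000, lies in a stretch without coding genes. Over it the peak measured 36, 35, 37 and 35 kb in the siNC libraries and 35, 37 and 36 kb in the DMSO libraries. The nearest treated peak lay 97, 96, 176 and 97 kb away in the siSUV420H1 libraries and 177, 26 and 176 kb away in the A-196 libraries. The domain was thus nearly the same width in all 7 control libraries, and the treated-free stretch around it was 420 kb long and held 3 stretches covered in all controls, those under 5 kb included.

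The next 2 by width lie in muscle genes on chromosome 6. In TRDN, the gene of triadin of the sarcoplasmic reticulum, the 28 kb domain chr6:123334001-123362000 was a peak of 29, 30, 31 and 30 kb in the siNC libraries and of 29 kb in each DMSO library. Its nearest treated peaks were far, at 462, 462, 462 and 464 kb with siSUV420H1 and at 308, 159 and 1434 kb with A-196. In MLIP, whose product binds lamin A/C in muscle, the domain chr6:54048001-54073000 of 25 kb was a peak of 29, 27, 26 and 27 kb with siNC and of 28, 26 and 28 kb with DMSO. These domains had control peaks that ended close to the domain edges in every library.

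Others were parts of wider peaks in some controls. The domain chr6:103399001-103422000, 23 kb wide with no coding gene, was a peak of 87, 28, 33 and 90 kb with siNC, but of 23, 24 and 24 kb with DMSO. All 4 siSUV420H1 libraries had a peak 10 to 12 kb from it, and treated peaks together covered 41 kb of the control domain of 90 kb that surrounds it. In SEMA3A, which encodes a secreted semaphorin that guides axons, the domain chr7:84468001-84491000 of 23 kb was a peak of 24, 24, 32 and 24 kb with siNC and of 69, 31 and 33 kb with DMSO. The domain chr5:91178001-91196000 of 18 kb was part of peaks of 26, 18, 22 and 23 kb with siNC and of peaks of 149, 138 and 142 kb with DMSO. The siNC and DMSO peaks do not overlap in width at this last domain, where the DMSO peaks were wider. They also do not overlap at chr6:103399001-103422000, where the siNC peaks were wider.

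The remaining 6 of the 12 ran from 21 to 15 kb. They were chr7:118924001-118945000 (21 kb, no coding gene), chr10:88540001-88557000 in RNLS (17 kb), chr17:48987001-49004000 over the first part of IGF2BP1 (17 kb), chr1:116346001-116362000 (16 kb), chr1:43009001-43024000 (15 kb) and chr5:55590001-55605000 (15 kb). RNLS encodes renalase, a secreted flavoprotein, and IGF2BP1 an oncofetal RNA-binding protein. At IGF2BP1 the control peak was 18, 17, 20 and 19 kb in the siNC libraries and 20 kb in each DMSO library. A domain at chr7:119392001-119407000 is also 15 kb wide and follows in the order of position.

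**Figure D2:**
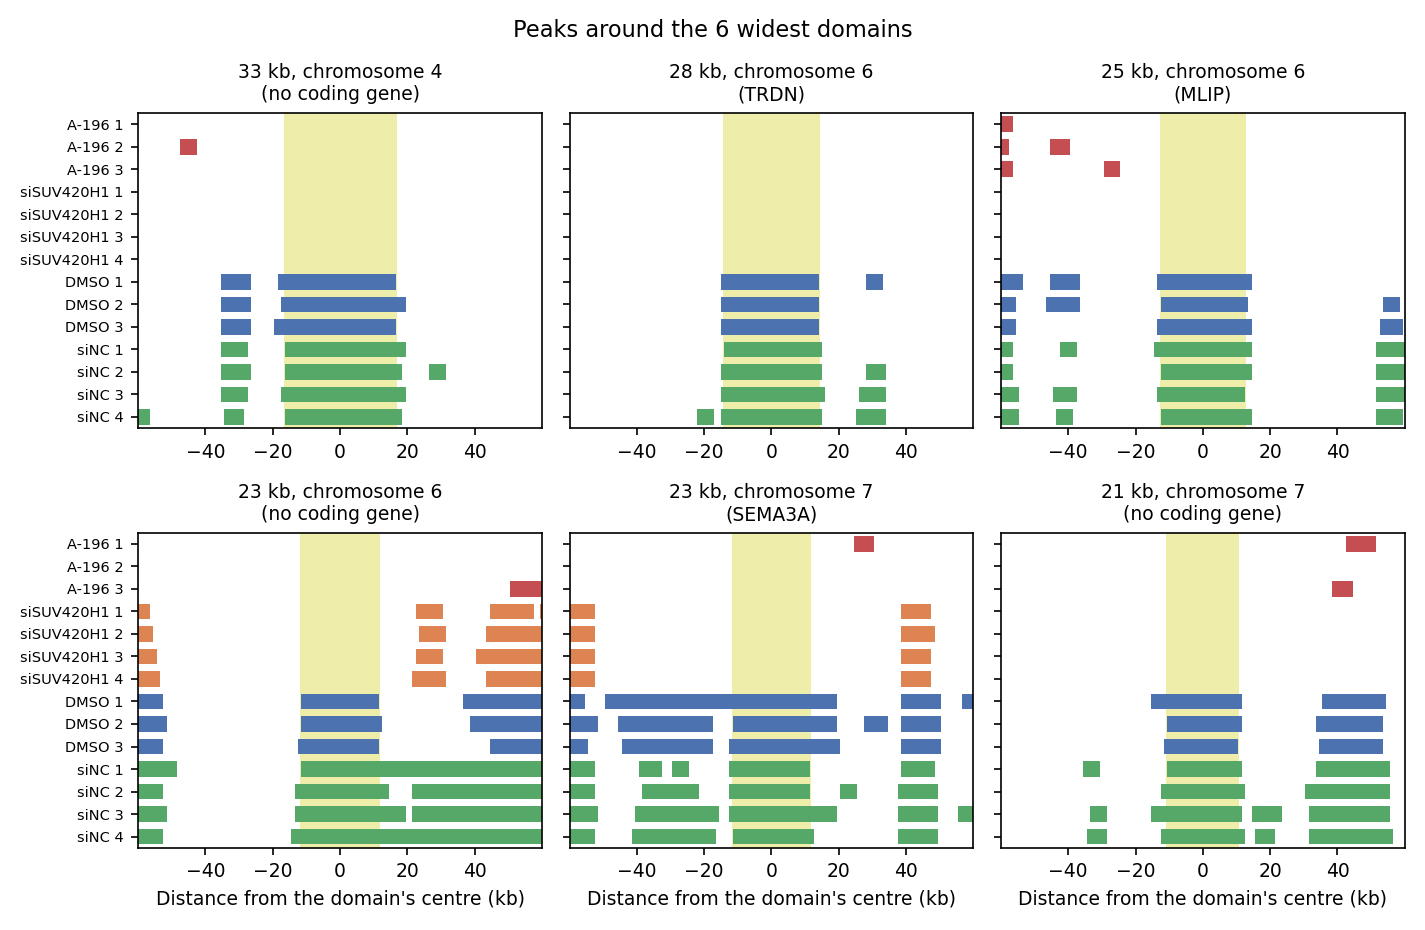
Each panel shows the peaks of all 14 libraries, 1 row per library, around 1 of the 6 widest domains (shaded), against the distance from the domain's centre in kb. The shaded spans hold peaks in all 7 control rows and none in the 7 treated rows, and in the panels on SEMA3A and on the domain of 23 kb on chromosome 6 all siSUV420H1 rows have peaks nearby.

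The rule keeps treated peaks off the domains, so how far the nearest one lay is only described. No like distance was measured for other control regions. The distance from a domain to the nearest peak of any of the 7 treated libraries had a median of 14 kb, and 73 domains (12.6%) had such a peak within 2 kb. It was 20 kb or more for 242 domains (41.9%), 50 kb or more for 126 (21.8%) and 100 kb or more for 63 (10.9%). The treated-free stretch around a domain, from the last treated peak before it to the first after it, had a median of 98.5 kb. In 507 cases (87.7%) the domain was the single stretch covered in all controls, of any width, that lay whole within its treated-free stretch. The stretch covered without a gap by peaks of at least 1 control library around a domain had no treated peak at all for 367 domains (63.5%), and for the other 211 (36.5%) a treated peak lay elsewhere on it.

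The 5 domains farthest from a treated peak were small ones in wide open stretches. At chr5:100819001-100827000, an 8 kb domain in ST8SIA4, which encodes a polysialyltransferase, the nearest treated peak was 1650 kb away, in a treated-free stretch of 3549 kb. The distance was 825 kb at chr3:88027001-88036000 (9 kb), 693 kb at chr13:29455001-29464000 in MTUS2 (9 kb), 469 kb at chr4:126393001-126398000 (5 kb) and 365 kb at chr22:36048001-36059000 (11 kb). ST8SIA4 had 0 kb under peaks in all 7 treated libraries, against 9, 8 and 8 kb with DMSO and 20, 19, 20 and 18 kb with siNC. MTUS2 likewise had 0 kb in the treated libraries, against 15, 16 and 16 kb with DMSO and 14, 10, 21 and 18 kb with siNC.

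Many domains had another within reach. In all, 327 of the 578 (56.6%) lay within 1 Mb of another, in 112 runs. The like share for control regions in general was not computed, so no clustering is read from this count. The run with the most domains, 9 of the 25 control regions between chr4:73873001 and chr4:76810000, holds 60 kb of lost domains and passes through the CXC chemokine clusters, though the single coding gene its domains touch is ART3, a member of the ADP-ribosyltransferase family. Next is a run of 8 of 13 control regions with no coding gene, chr4:134618001-136277000, which includes the widest domain and holds 84 kb of lost domains. A run on chromosome 10, chr10:88496001-89965000, had 8 of 17 control regions lost, 63 kb in all, over RNLS, ANKRD22, ACTA2 and FAS, LIPA and IFIT3. FAS encodes a death receptor, LIPA lysosomal acid lipase and ACTA2 smooth muscle actin.

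Of the other runs, chr3:187364001-190697000 had 7 of its 38 control regions lost, 49 kb in all, over RTP4, LPP, TPRG1 and TMEM207. In chr7:118924001-121106000, 6 of 11 were lost, 65 kb in all, over KCND2, a potassium channel gene, and CPED1. The same number, 6 of 14, was lost in chr7:84318001-84815000, which holds the SEMA3A domains. None of these 6 runs lost all of its control regions.

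Beyond their edges the lost domains were poorer in treated peaks than other control regions were. At 20 kb from an edge, 5.54% to 9.08% of lost-domain edges had a peak in the A-196 libraries and 6.49% to 7.27% in the siSUV420H1 libraries, against 24% to 24.8% in DMSO libraries and 21.7% to 22.6% in siNC libraries. Around other control regions the same distance had a peak at 12.3% to 19.4% of edges with A-196 and 16.2% to 17.2% with siSUV420H1, against 30.5% to 32.4% with DMSO and 27.1% to 27.9% with siNC. The lost domains are lower here in all 4 groups, and the range of each group lies below its range around other control regions. Widths were not matched in this comparison, the median being 7 kb for lost domains and 10 kb for other control regions. At 100 kb the shares around lost domains were 4.67% to 7.53% with A-196 and 6.4% to 7.7% with siSUV420H1, against 15.7% to 16.6% with DMSO and 14.7% to 15.7% with siNC. Close to the edge, at 2 kb, treated libraries reached at most 1.73%, while controls were at 41.5% to 47.7%, since control peaks run past the shared core that defines a domain.

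**Figure D3:**
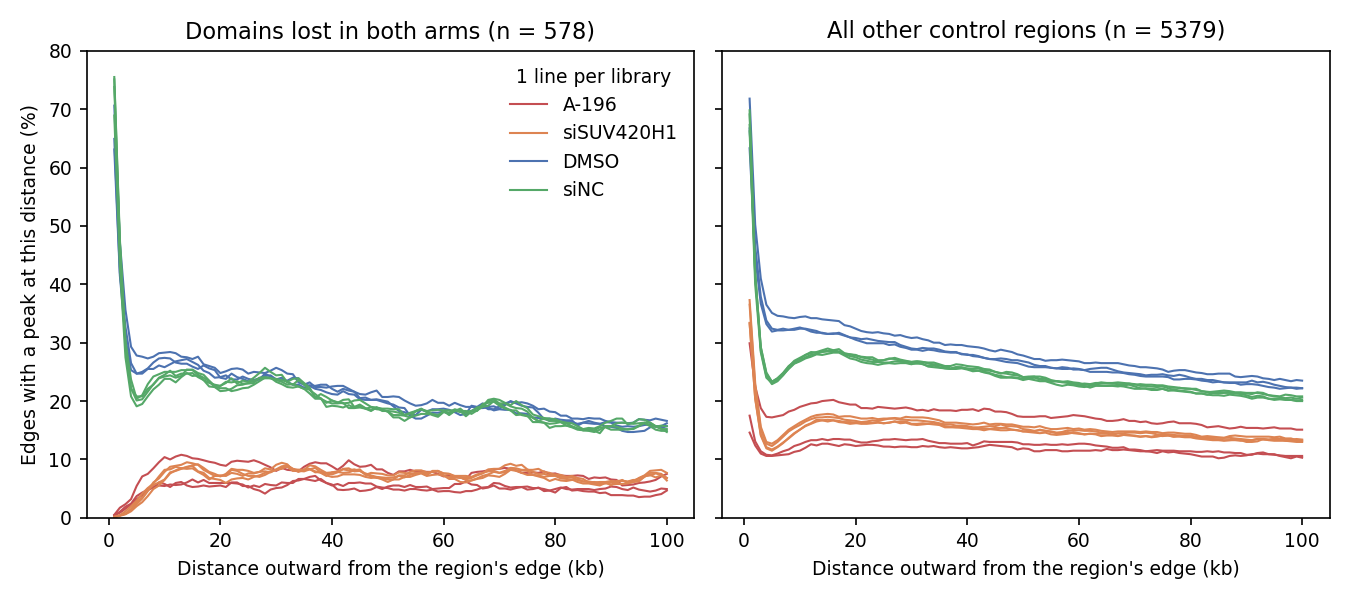
The vertical axis gives the percentage of region edges with a peak at each distance outward from the edge (horizontal axis, kb), 1 line per library, for the 578 domains lost in both arms and for the 5379 other control regions. Around lost domains the A-196 and siSUV420H1 lines stay under 11%, and the DMSO and siNC lines come down from 63.1% or more at 1 kb to 14.7% to 16.6% at 100 kb.

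Summed over the 50 kb on both sides, the A-196 libraries had 5.38, 5.09 and 8.48 kb under peaks per lost domain and the siSUV420H1 libraries 7.21, 6.74, 7.13 and 6.62 kb, against 26.4, 25.1 and 25 kb in the DMSO libraries and 23.1, 23.9, 24.3 and 23.6 kb in the siNC libraries. The treated and the control libraries do not overlap. Around other control regions the values were 12.1 to 18.9 kb with A-196 and 15.9 to 17 kb with siSUV420H1, against 30.9 to 32.9 kb with DMSO and 27.1 to 27.7 kb with siNC. No peak at all lay in these flanks for 320, 291 and 272 of the 578 domains with A-196 and for 299, 312, 294 and 307 with siSUV420H1, against 34, 42 and 55 with DMSO and 20, 19, 11 and 15 with siNC. As shares these were 55.4%, 50.3% and 47.1% with A-196, against 34.7%, 32.3% and 23.4% of other control regions. With siSUV420H1 they were 51.7%, 54%, 50.9% and 53.1%, against 18.8%, 22.7%, 19.6% and 22%. With DMSO they were 5.88%, 7.27% and 9.52%, against 5.95%, 8.29% and 7.4%. With siNC they were 3.46%, 3.29%, 1.9% and 2.6%, against 3.12%, 2.4%, 2.84% and 2.4%. Widths were not matched in these comparisons. Flanks were not part of the rule, but peaks are often wider than a domain and neighbouring bins share peaks, so flanks are not independent of it and treated and control flanks were not tested.

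**Figure D4:**
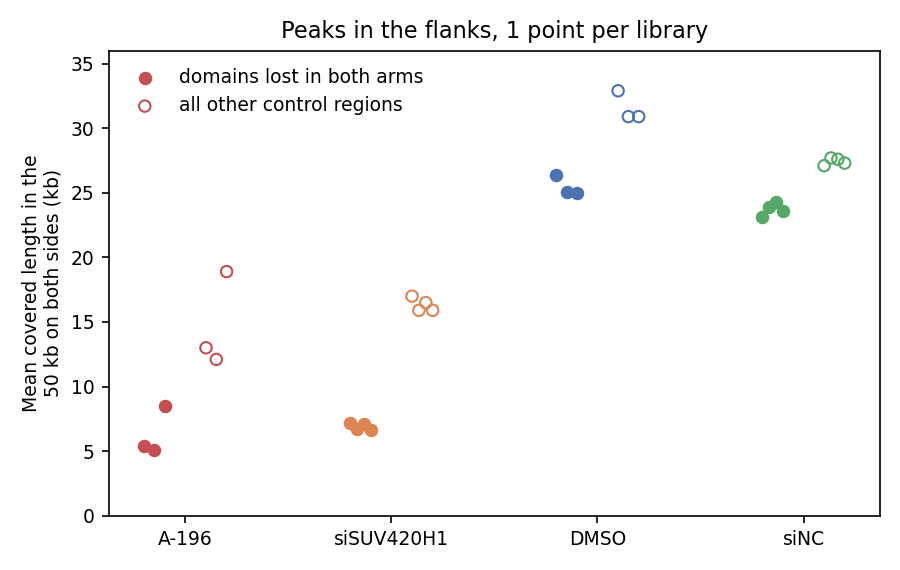
Each point is a library, with the mean length under peaks in the 50 kb on both sides on the vertical axis (kb), filled for the 578 lost domains and open for all other control regions, by group. Filled points of the treated libraries sit between 5.09 and 8.48 kb, and those of the control libraries between 23.1 and 26.4 kb.

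The siSUV420H1 libraries were also compared with the A-196 libraries, and the siNC with the DMSO libraries. These measures come from the same peak calls as the rule, which binds 4 siRNA libraries and 3 inhibitor libraries on each side, so they are not independent of it, and the p-values below support no statement. The length under peaks in all flanks together was 4 ± 0.167 Mb with siSUV420H1 (SD, n = 4) and 3.65 ± 1.09 Mb with A-196 (SD, n = 3), a difference of 0.351 Mb with p = 0.514 and adjusted p = 0.743 by an exact two-sided permutation of libraries. The median distance from a domain to the nearest peak was 54.4 ± 4.05 kb with siSUV420H1 (51.5, 59, 50.5 and 56.5 kb) and 52.3 ± 14.6 kb with A-196 (68, 50 and 39 kb), a difference of 2.04 kb with p = 0.743 and adjusted p = 0.743 by the same exact permutation test. The A-196 libraries lie on both sides of the siSUV420H1 libraries in each measure. Either difference turned negative without 1 library, at -0.0035 Mb for the flanks without A-196 replicate 2 and at -4.62 kb for the distance without A-196 replicate 3. Neither difference passed the threshold of 0.05, which 4 libraries against 3 cannot reach, the smallest possible p being 0.0571.

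The width of the control peaks over the domains depended on the summary used. The median over domains was 10 ± 0 kb with siNC (10 kb in all 4 libraries) and 10.7 ± 0.577 kb with DMSO (11, 10 and 11 kb), a difference of -0.667 kb with p = 0.286 and adjusted p = 0.743 by an exact two-sided permutation of libraries. The mean was 13.7, 13.9, 14.4 and 14.3 kb with siNC and 24.5, 20.3 and 22.8 kb with DMSO, which do not overlap. The difference in means was -8.47 kb, with p = 0.0571 by an exact two-sided permutation, the smallest that 4 against 3 allows. The mean was an alternative to the median of the main test, its p is unadjusted, and it too supports no statement. Around other control regions, of all widths, the means were 24.1 to 24.8 kb with siNC and 39.9 to 46.4 kb with DMSO. Among regions of 5 to 9 kb, the median was 10 kb over lost domains in every control library. Over other control regions of that width it was 9 to 11 kb, so at like width the medians were close.

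Of the domains, 285 (49.3%) touched no coding and no long noncoding RNA gene. At least 200 bases of a coding gene were covered in 163 domains (28.2%), against 1661 of the other 5379 control regions (30.9%), and long noncoding RNA genes were covered in 155 (26.8%), against 28.4% of the others. At 5 to 9 kb, 140 of the 873 regions on a coding gene were lost (16%), against 17.6% of those on none. For long noncoding RNA genes the direction turns with width, since 19% of the regions of 5 to 9 kb on such a gene were lost, against 16.6% of those on none, while over all widths it was 9.2% against 9.9%. The 163 domains touched 156 of the 1431 coding genes that overlap a control region (10.9%), a share near that of the regions themselves. The median length of the 156 genes was 126 kb, against 72.1 kb in genes at other control regions, 55.7 kb for genes at regions kept in all treated libraries and 24.2 kb for all 19974 coding genes. In 103 of the 156, a treated peak lay elsewhere on the gene, and 53 genes, with a median length of 50.1 kb, had none. Genes in overlapping positions share a domain and cannot be told apart.

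By length of overlap SEMA3A came first, with 40 kb in 4 domains. On the whole gene it had 29, 33 and 32 kb under peaks with A-196 and 76, 87, 65 and 82 kb with siSUV420H1, against 223, 232 and 206 kb with DMSO and 161, 171, 201 and 158 kb with siNC. The groups do not overlap, and SEMA3A kept more of its peaks with siSUV420H1 than with A-196. RNLS followed with 28 kb in 3 domains, and had 0, 13 and 5 kb under peaks with A-196 and 9, 10, 10 and 8 kb with siSUV420H1, against 94, 93.5 and 85 kb with DMSO and 104, 116, 123 and 123 kb with siNC. RNLS was thus nearly free of peaks in all treated libraries while over 80 kb of it was covered in each control.

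TRDN, with 28 kb of overlap, had 0, 5 and 0 kb under peaks with A-196 and 0 kb in all 4 siSUV420H1 libraries, against 39, 34 and 29 kb with DMSO and 41, 59, 62 and 67 kb with siNC. MLIP, with 25 kb, had 0, 2.03 and 10 kb with A-196 and 0 kb in all siSUV420H1 libraries, against 33, 46 and 35 kb with DMSO and 51, 46, 57 and 47 kb with siNC. Both muscle genes had their remaining treated peaks in A-196 libraries. TMC1, which encodes a subunit of the mechanotransduction channel of inner ear hair cells, had 25 kb in 3 domains and kept 35, 21 and 35 kb with A-196 and 36, 32, 42 and 33 kb with siSUV420H1, against 140, 156 and 141 kb with DMSO and 126, 124, 146 and 155 kb with siNC. TMC1 was thus covered over a smaller part in each treated library, and its lost domains are pieces of a longer marked gene.

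The rest of the 15 genes with the longest overlap had 20 to 14 kb in domains. Those reported are SLC24A2 (a sodium, calcium and potassium exchanger), ART3, CCSER1, HSD17B12 (fatty acid elongation), KCNU1 (a potassium channel of sperm), FYB1 (an adaptor of T cells), NMNAT2 (NAD synthesis in axons), PCDH9 (a protocadherin) and TFEC (a transcription factor). ART3 had 0 kb in 6 treated libraries and 8 kb in siSUV420H1 replicate 3, against 67.8, 62.8 and 68.8 kb with DMSO and 64.8, 70.8, 62.8 and 62.8 kb with siNC. NMNAT2 had 9, 5 and 0 kb with A-196 and 0 kb in all siSUV420H1 libraries, against 63.8, 61 and 55 kb with DMSO and 34, 29, 26 and 27 kb with siNC. PCDH9 kept more than ART3 or NMNAT2, with 46, 59 and 57 kb with A-196 and 27, 44, 34 and 29 kb with siSUV420H1, against 104, 100 and 78 kb with DMSO and 170, 171, 188 and 147 kb with siNC.

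Gene lists were set beside the background of 10.9%, without matching for gene length. Of 56 interferon-stimulated genes, 10 had a control region and 3 had a lost domain, IFI16, RTP4 and IFIT3. IFI16, a sensor of DNA in the nucleus, had 0, 0 and 5 kb under peaks with A-196 and 0 kb in all siSUV420H1 libraries, against 10, 9 and 10 kb with DMSO and 10, 9, 9 and 9 kb with siNC. RTP4, a Golgi chaperone of receptors, had 0 kb in all 7 treated libraries, against 3.69 kb in each DMSO library and 3.62, 3.69, 3.62 and 3.69 kb in the siNC libraries. IFIT3, whose product binds other antiviral IFIT proteins, had 0 kb in all 7 treated libraries, against 10, 6 and 13 kb with DMSO and 2, 3, 2 and 2 kb with siNC. The rule itself sets the controls above the treated libraries where a domain makes up most of what is covered, as in RTP4, so nothing is read from that order. Among 21 gasdermin, caspase and inflammasome genes, 4 had a control region and IFI16 was again the gene with a lost domain.

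Receptors with a C-type lectin fold had 8 of 44 genes with a control region and 4 with a lost domain, CLEC2A, KLRF2, OLR1 and CLEC12B. OLR1, the receptor of oxidized LDL, had 0 kb in all treated libraries, against 18 kb in each DMSO library and 7.27, 8.27, 8.27 and 6.27 kb in the siNC libraries. Its domain also overlaps TMEM52B. CLEC12B likewise had 0 kb in all treated libraries, against 5.8, 5 and 5.8 kb with DMSO and 5.8 kb in each siNC library. KLRF2 lies inside the span of CLEC2A, and the same domain of 6 kb, chr12:9882001-9888000, covers both, so they count as a single place. On the whole of CLEC2A peaks remained in every treated library, 16, 18 and 19 kb with A-196 and 18 kb in each siSUV420H1 library, against 49.3, 52.3 and 48.3 kb with DMSO and 34, 35.3, 41.3 and 34.3 kb with siNC. KLRF2 had 0, 3.83 and 1.83 kb with A-196 and 0 kb in all siSUV420H1 libraries, against 14.3, 14.3 and 11.3 kb with DMSO and 10.3, 9.35, 14.3 and 8.83 kb with siNC. In this list 2 genes had a region kept in all treated libraries. In the list of non-clustered protocadherins and cadherins, 3 of the 4 genes with a control region had a lost domain (PCDH9, CDH18 and PCDH15), and the same number, 3, had a region kept in all treated libraries. PCDH9, CDH18 and PCDH15 span 928, 1100 and 1830 kb, against a median of 126 kb for all genes with a lost domain. Solute carriers had a lost domain in 4 of 27 genes (SLC24A2, SLC25A21, SLC9C2 and SLC4A10). Of 3 UGT genes, which attach glucuronic acid to lipophilic compounds, UGT2B7 had a lost domain, and of 3 DNA repair genes RADX, which binds single-stranded DNA at replication forks, had one. RADX was at 0 kb in all 7 treated libraries, against 11, 13 and 12 kb with DMSO and 10.4, 9, 15.4 and 12.4 kb with siNC.

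Zinc finger genes were at the other extreme. Of 561 C2H2 zinc finger genes, 264 had a control region and 2 had a lost domain (0.758%), ZNF804A and ZNF366, while 212 had a region kept in all treated libraries. On chromosome 19, none of the 163 zinc finger genes with a control region had a lost domain. Among regions of 5 to 9 kb, 2 of the 89 that overlapped a zinc finger gene were lost (2.25%), against 494 of the other 2801 (17.6%), so at like width the shares also differ. None of the 18 clustered protocadherin genes with a control region had a lost domain, and 17 had a region kept in all treated libraries.

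Further lists were small. Of the 11 genes of the epidermal differentiation complex with a control region, LCE1C, a late cornified envelope gene, had a lost domain, and of 3 imprinted genes ZFAT had one. No lost domain covered 200 bases or more of the chemokines (6 genes with a control region), keratins (5), keratin-associated proteins (10), serpins (6), squamous epithelial genes (5), DNA replication and cell cycle genes (2) or the H4K20 methylation and heterochromatin machinery (1). Olfactory receptors, HOX genes, histone genes and the markers of fibroblasts, endothelium and leukocytes had no gene with a control region. In all, 10 of 22 lists had a member with a lost domain, and 18 had a member with a control region.

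Gene starts lay in few of the domains. The RefSeq start table holds none for chromosome 8 and its 26 domains, and it is not complete. It has starts for 15812 coding genes, while 19974 coding genes were considered for overlap. IGF2BP1, whose first part lies in a domain, has no start counted here. The table placed 51 starts of 45 genes in 39 domains, and the counts of starts given here are lower bounds. Starts of coding genes, 23 genes in all, lay in 22 domains (3.81%), against 282 of the other control regions (5.24%) and 164 of the 1917 regions kept in all treated libraries (8.56%). Among regions of 5 to 9 kb, 20 of the 89 with a coding start were lost (22.5%), against 17% of those without. The share with a coding start is thus below that of other regions over all widths, while the loss of those with a start is above that of the rest at like width.

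Around these starts, covered bins were counted on both sides together. Of the 21 bins within 10 kb of the start of CLCA2, 0 were covered in all 7 treated libraries, against 15, 16 and 13 with DMSO and 15, 17, 16 and 16 with siNC. At LACTB the counts were 0 in the treated libraries, against 7, 8 and 8 with DMSO and 8 in each siNC library. At SLFN12L they were 0 in the treated libraries, against 10, 9 and 10 with DMSO and 10 in each siNC library. These starts stood well inside the domain for CLCA2, 5.829 kb from the nearest edge, and close to an edge for SLFN12L, at 0.677 kb.

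Some starts belong to widely used genes. NR3C1, the glucocorticoid receptor gene, has several alternative starts, and those in its domain of 7 kb, chr5:143404001-143411000, are rich in CpG. Within 10 kb of the first of them, 0 bins were covered in the treated libraries, against 8, 9 and 7 with DMSO and 7 in each siNC library. On the whole of NR3C1, with the 7 kb of this domain included, peaks covered 5, 0 and 0 kb with A-196 and 12, 11, 11 and 18 kb with siSUV420H1, against 17, 17 and 16 kb with DMSO and 26, 19, 19 and 19 kb with siNC. All siSUV420H1 libraries thus had peaks elsewhere on NR3C1. DNAJC2, which encodes a chaperone at the ribosome, and PSMC2, which encodes an ATPase of the proteasome, start in the same domain, chr7:103343001-103350000, and both genes had 0 kb in all treated libraries. For DNAJC2 the controls had 2.77, 1.77 and 1.77 kb with DMSO and 2.77, 2.77, 3.77 and 2.77 kb with siNC.

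Further starts in domains belonged to adaptors of cell death and innate signalling and to epithelial genes. CARD6 and CRADD encode proteins with a caspase recruitment domain, and TANK an adaptor of TRAF proteins. Within 10 kb of the CARD6 start, 0 bins were covered in the treated libraries, against 10, 11 and 11 with DMSO and 9, 8, 8 and 10 with siNC. CRADD had 0 in the treated libraries, against 10, 9 and 12 with DMSO and 14, 14, 13 and 14 with siNC. TANK kept a few bins at some distance, 3, 0 and 0 with A-196 and 0, 1, 1 and 1 with siSUV420H1, against 17, 19 and 17 with DMSO and 13, 14, 17 and 14 with siNC. SERPINB5, the gene of maspin, a serpin of epithelia, had its start in a domain that covers too little of the gene to be counted as overlap, with 0 bins in the treated libraries, against 13, 12 and 13 with DMSO and 6, 10, 11 and 6 with siNC. LCE1C had 0, against 12, 11 and 9 with DMSO and 6, 8, 5 and 9 with siNC. The remaining coding starts that the start table placed in a domain were those of ART3, ARSJ, C12orf71, SSBP2, ANKRD22, PTCHD4, ANP32D, CCDC150 and MIGA1, with those of IFI16, RTP4 and IFIT3 given above.

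**Figure D5:**
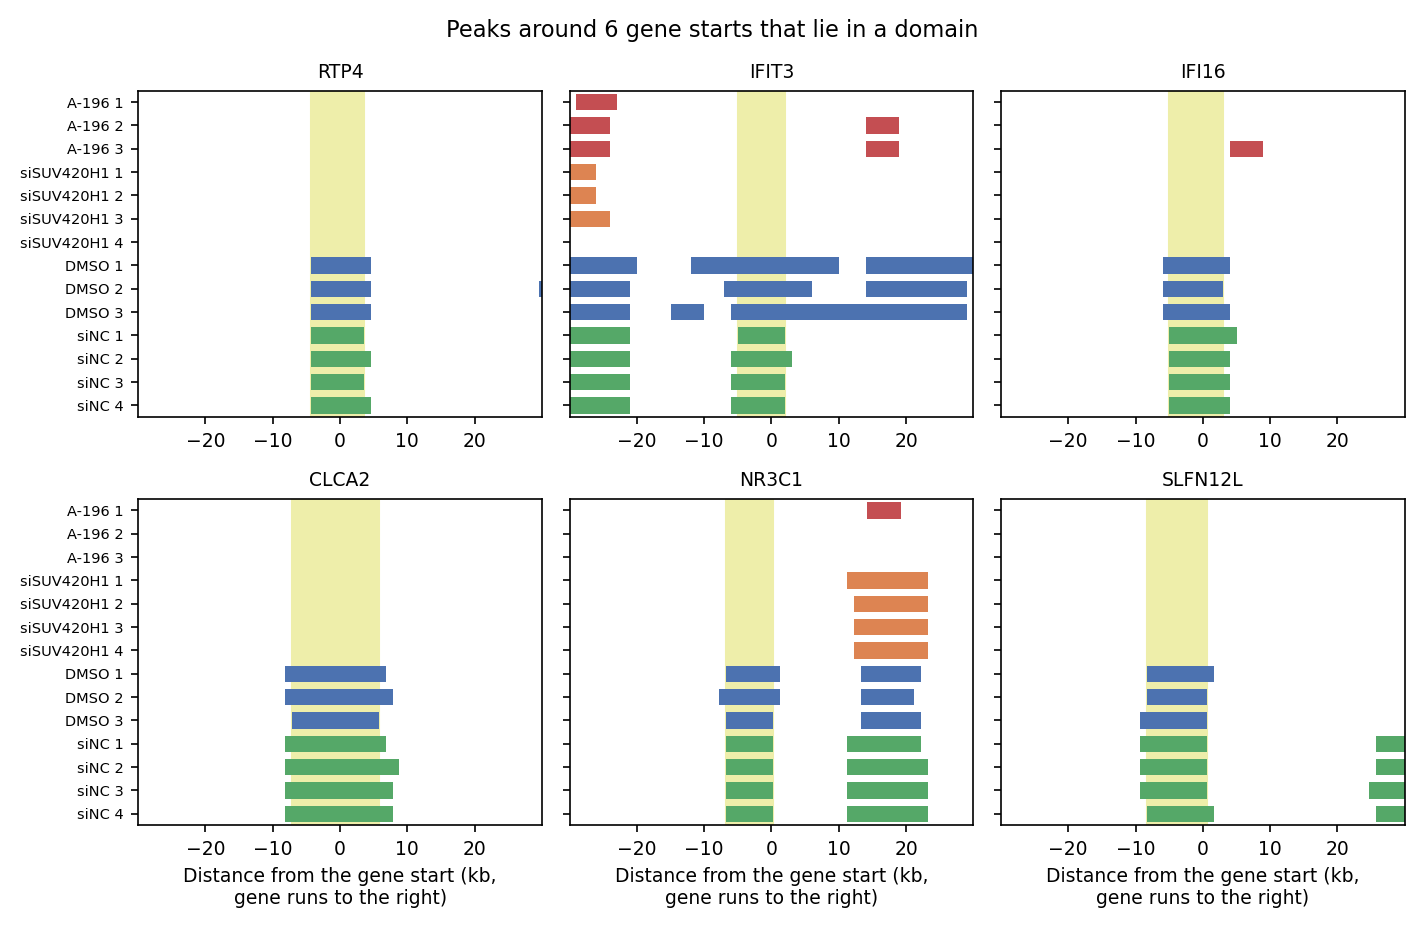
Each panel shows the peaks of all 14 libraries, 1 row per library, around the start of 1 gene in a domain (shaded), against the distance from the start in kb with the gene running to the right. In the 6 panels the shaded span holds peaks in all DMSO and siNC rows and none in the A-196 and siSUV420H1 rows. At IFI16, A-196 replicate 3 has 5 covered bins within 10 kb of the start, outside the shaded span. At IFIT3 and NR3C1 treated peaks lie more than 10 kb from the start.

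The windows of 300 bases around starts in lost domains had a median GC content of 45%, against 48% at other control regions and 58.7% over all 34961 starts. For coding genes the medians were 45% in lost domains, 54.3% at other control regions and 62.3% over all coding starts. Windows with 10 or more CpG made up 11 of 28 coding starts in lost domains (39.3%), against 54.7% at other control regions and 70.1% of all coding starts. Control regions in general held starts that were poorer in GC than the genome's, and those in lost domains were the poorest of the 3 sets in median GC.

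Of the motifs, the interferon response core on either strand was found in the 250 bases before 8 of the 51 starts in lost domains (15.7%), against 40 of 821 starts at other control regions (4.87%) and 1056 of all 34961 (3.02%). The 8 were those of C12orf71, CRADD, IFIT3, LCE1C, RTP4, SLFN12L, LOC105377265 and LOC124901257, the last pair noncoding. Of these, RTP4 and IFIT3 are on the list of interferon-stimulated genes. IFI16, also on that list and with a lost domain, had no such core before its starts in the domain. TGANTCA, whose reverse complement has the same letters, was found before 11 of 51 (21.6%), against 12.4% at other control regions and 6.54% of all starts. TATAAA on the strand of the gene was found before 4 of 51 (7.84%), against 10.5% at other control regions and 6.8% of all starts. No match of a motif overlapped a match of another motif, while the matches to the interferon response core at C12orf71 overlapped each other. The TGANTCA matches before ARSJ and LOC107986305, which start on opposite strands, are the same bases and are counted for both starts. Several starts belong to the same gene or share a domain, so they are not independent. The shares were not matched for GC content or region width. Median GC was 45% at starts in lost domains, against 48% at other control regions and 58.7% over all starts. Whether this bears on the motif shares was not tested. These matches are letters in a window and do not show that a factor binds there.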

How the data were processed

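H4K20me3 CUT&RUN peaks of 14 of 24 labelled samples were used, and the other 10 samples (IgG, H3K4me3 and H3K27me3) were not analysed here. The authors deposited, for each library, a list of broad peaks with start and end positions and no score, signal or count. The authors' tools, per the submitters' processing notes, were bedtools 2.30.0, Picard 2.27.3, cutadapt 4.4 and Bowtie on hg38. The lists are labelled as made without duplicates and as called against 1 IgG library of its arm, that of DMSO cells for the inhibitor arm and one without a treatment label for the siRNA arm. The peak caller is not given in the sources used here.

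Peaks were placed on a grid of 1 kb, without chromosome Y, in Python 3.11.15 with numpy 2.4.6 and pandas 2.3.3. Coding genes were assigned at an overlap of 200 bases or more with RefSeq gene spans (GRCh38.p14), which hold no exons here. Starts and sequences came from RefSeq tables of the same build. The finding of regions was tested on simulated lists. Library values were compared by exact two-sided permutation (SciPy 1.17.1), with Benjamini-Hochberg adjustment over 3 tests. Genes were named by a rule, namely the 12 widest domains, the 15 longest gene overlaps, up to 4 genes per list, the 5 farthest domains, the 5 runs with the most domains and up to 20 coding starts, taken by domain width. A gene that this rule names is not reported here. The next run and the further starts and genes named were chosen after their values were seen, as were the sequences printed. The members, lists and tests were chosen with earlier results of these data known. Alternatives changed the region rule, the peaks used, the summaries, the flank length, the replicate block and single libraries.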

Additional observations from a re-analysis of the deposited data

Results flagged for a closer look

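Of 17 groups of 4 libraries whose values for single wide domains were examined, 4 had a library far from the other 3, and chance flags about 1 in 20 groups. All are widths of the siNC peak over a domain, on a grid of 1 kb, where equal values in 3 libraries flag any difference in the fourth. At chr7:84468001-84491000 in SEMA3A, a siNC library had a peak of 32 kb and the other 3 of 24 kb. At chr10:88540001-88557000 in RNLS, a siNC library had a peak of 48 kb, against 19, 20 and 21 kb in the others. At chr1:116346001-116362000 the value was 28 kb against 29 kb in the others, and at chr5:55590001-55605000 it was 17 kb against 16 kb. The first and second were siNC replicate 3.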

How the results depend on the processing

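The count of 578 domains moved most with the definition of a region. It was 82 with a smallest width of 10 kb, 893 when 6 of the 7 controls sufficed, 987 when 1 of the 7 treated libraries was allowed a peak and 965 when single bins replaced whole regions. It was 533 to 674 with a width of 3 kb, with bins up to 2 kb apart merged, with treated peaks kept 2 kb away, with peaks of 7 kb or more and with autosomes alone. The count of 156 genes was 23 at 10 kb, 2 for whole genes inside a domain and 53 without any treated peak on the gene, and 146 and 175 with other overlaps. Leaving out each library gave 594 to 763 domains and 158 to 193 genes, the highest counts of domains without A-196 replicate 3.

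The difference in median width, siNC minus DMSO, was -1 to -0.5 kb with a library left out, and -8.47 kb with the mean over domains in place of the median (exact permutation p = 0.0571), the cause of which was not tested. The difference in distance, siSUV420H1 minus A-196, was -4.62 to 9.88 kb with a library left out, negative without A-196 replicate 3, and -83.3 kb with peaks of 7 kb or more, the cause of which was not tested. The difference in flank length was -0.0035 to 0.977 Mb with a library left out, negative without A-196 replicate 2, and -0.00458 Mb with flanks of 20 kb. With replicate numbers as a block the differences were -0.667 kb, 1.33 kb and 0.409 Mb, with exact p of 0.5, 1 and 0.5 by sign flips. The numbers do not pair the libraries, since deviations of same-numbered libraries correlated at -0.3 to -0.0245. Exact permutation p-values ran from 0.0571 to 1 over these settings, none under 0.05. Read depth is unknown, and peaks under 5 kb and signal below the caller's threshold are not visible.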
